A study of Mus musculus with 4 samples.

Results

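The genes of cholesterol synthesis and of its control by the SREBP transcription factors were read in RNA from neural stem cells that had been sorted from the adult mouse brain, in 4 libraries. The set holds 34 genes chosen by name from the pathway, of 32564 genes with a matched transcript and 19908 genes with a count in any library. It holds 18 enzymes in the order of their reactions, 7 genes of the SREBP control circuit and 9 genes of sterol transport and fate. All 34 were found, through 173 annotated transcripts, and their level was summed over transcripts as TPM, a unit that corrects for transcript length and scales each library to the same total.

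All 4 libraries belong to 1 group. Per the sample labels, cells positive for Prom1, EGFR and GFAP were sorted from untreated gfap:GFP animals, 3 months old and of mixed CD1/C57BL/6 background, and are called activated. The reporter rests on the Gfap promoter, which astrocytes use as well. The series' design text instead speaks of quiescent cells sampled after aCSF or antagomers of miR204 were injected; no label ties a library to either, so no treatment was compared, and a difference between libraries could include one. Whether the libraries stem from different animals is not stated, so SDs and p-values describe the spread between these libraries, which may be technical.

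Cholesterol is built from acetyl-CoA through mevalonate, squalene and lanosterol. In the endoplasmic reticulum SCAP carries the SREBP precursors toward the Golgi when sterols are low, INSIG proteins hold them back when sterols are high, and the site-1 and site-2 proteases release the active factor, which raises transcription of nearly every enzyme of the path. The adult brain makes its own cholesterol, since lipoproteins of the blood do not cross into it, and astrocytes and oligodendrocytes are known as its main makers.

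The libraries held 16978938 to 23727664 estimated counts. No pair was alike within sampling noise: the mean chi-square per gene between libraries was 47.8 to 66.4, against a mean of about 1 for counting error alone. The median was 12.4 to 21.6. All 7 sorting and neural stem markers were above 1 TPM. Of the marker lists of other cell types, all 8 oligodendrocyte genes (2515 to 4343 TPM summed per library), all 7 microglia genes (99.8 to 365 TPM), all 8 ependymal genes (601 to 1211 TPM) and 5 of 6 neuron genes (1039 to 1284 TPM) were above it too. Erythroid genes differed most between libraries, at 59.9 to 2342 TPM summed. Of 7 endothelial or mural genes 2 were above 1 TPM and Cdh5 and Kcnj8 were at 0 in every library. Levels below are therefore those of the sorted material, in which fewer cells of a type and less RNA per cell cannot be told apart.

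Promoter sequence is shown for genes on which the results turn: Hmgcs1, one of the most abundant enzyme transcripts, Insig1, the more abundant of the INSIG genes, and the separate starts of Srebf1. Each stretch lies directly before a RefSeq start (GRCm38.p6), reads 5′ to 3′ on the gene's strand, and has in capitals any sterol regulatory element TCACNCCAC, any CCAAT box and any E-box CACGTG, on either strand (ATTGG is CCAAT read on the other strand).
Hmgcs1, chr13:119690151-119690350, plus strand: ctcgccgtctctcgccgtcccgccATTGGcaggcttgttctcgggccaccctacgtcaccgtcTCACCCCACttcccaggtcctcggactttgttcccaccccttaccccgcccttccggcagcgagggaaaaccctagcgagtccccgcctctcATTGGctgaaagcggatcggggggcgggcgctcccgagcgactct
Insig1, chr5:28071163-28071362, plus strand: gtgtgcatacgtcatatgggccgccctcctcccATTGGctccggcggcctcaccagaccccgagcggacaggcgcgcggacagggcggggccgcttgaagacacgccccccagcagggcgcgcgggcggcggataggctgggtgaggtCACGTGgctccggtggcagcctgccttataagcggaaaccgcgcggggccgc
Srebf1 upstream start, chr11:60220628-60220827, minus strand: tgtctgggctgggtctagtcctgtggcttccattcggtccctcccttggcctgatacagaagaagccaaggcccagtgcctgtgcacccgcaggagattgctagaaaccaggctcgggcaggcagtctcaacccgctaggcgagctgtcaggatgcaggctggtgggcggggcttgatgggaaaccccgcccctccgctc
Srebf1 downstream start, chr11:60210472-60210671, minus strand: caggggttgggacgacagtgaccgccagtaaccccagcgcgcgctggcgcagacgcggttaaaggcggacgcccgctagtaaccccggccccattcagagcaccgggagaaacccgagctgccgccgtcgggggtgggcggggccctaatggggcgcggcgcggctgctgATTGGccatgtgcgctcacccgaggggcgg

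RefSeq promoter windows, from 250 bases before to 50 after a start, were found for 29 of the 34 genes, 37 windows in all. The CCAAT box, the site of the SREBP partner NF-Y, stood in 25 of 37 windows (67.6%), against 37.4% of all 32851 promoter windows of that length. The GC box GGGCGG stood in 30 windows (81.1%, against 35.7% of all windows), and the E-box CACGTG in 6 windows (16.2%, against 7.15%). The sterol element as spelled here was in 1 window, that of Hmgcs1 (2.70%, against 1.24%), and the shorter CACCCCAC was in 2, of Hmgcs1 and Acat2 (5.41%, against 2.87%). At Hmgcs1 the shorter motif lies inside the longer one. These are letter matches, described without a test.

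Transcripts of 33 of the 34 genes were above 1 TPM and none was below it, where 62.8% of all genes tested were above and 23.3% below (limma on log2(TPM + 1), two-sided, Benjamini-Hochberg adjusted p under 0.05, n = 4). Only Ch25h passed in neither direction. The median of the 34 mean levels was 44.9 TPM, beside 8.35 TPM over all genes tested and 12.5 TPM over protein-coding genes. The 34 means ran from 1.59 TPM for Ch25h to 283 TPM for Srebf1.

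**Figure D1:**
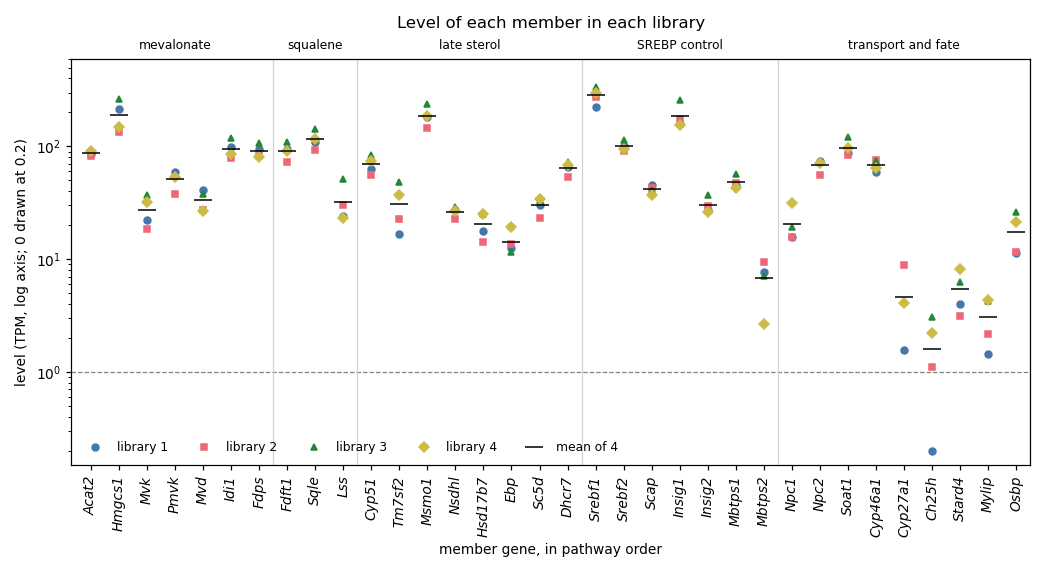
Level of each of the 34 genes (TPM, log axis) in each of the 4 libraries, in pathway order, with the mean as a bar and 1 TPM as a dashed line. Srebf1, Hmgcs1, Insig1 and Msmo1 stand highest, and Ch25h, Mylip, Cyp27a1 and Stard4 have the lowest means; the library in which Ch25h had no count is drawn at 0.2 TPM.

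The mevalonate enzymes, which turn acetyl-CoA into the isoprenoid farnesyl diphosphate, were all above 1 TPM (7 of 7), with a median of means of 87.7 TPM. Hmgcs1, the cytosolic HMG-CoA synthase (chromosome 13, 119690446 to 119708082, mm10), had 216, 134, 263 and 149 TPM in libraries 1 to 4. Libraries 1 and 3 were high and libraries 2 and 4 low, a 1.96-fold range. Its mean was 191 ± 59.96 TPM (SD, n = 4), 6.53 ± 0.17 (SE) above 1 TPM on the log2 scale (limma, adjusted p = 1.6e-07). Acat2, the thiolase of the first step, had 84.9, 82.3, 93.3 and 90.1 TPM, the narrowest of all 34 genes with an SD of 0.08 on the log2(TPM + 1) scale. However, 50.5% of the 31-base words of its leading transcript also occur in its relative Acat3 (20.1 TPM), so reads could be divided between the pair. The kinases Mvk and Pmvk averaged 27.3 ± 8.44 and 51.7 ± 9.40 TPM and the decarboxylase Mvd 33.2 ± 7.28 TPM (SD, n = 4 each). Mvk was highest in library 3 at 36.7 TPM and lowest in library 2 at 18.5 TPM. The isomerase Idi1 (95.6 ± 17.2 TPM) and the farnesyl diphosphate synthase Fdps (91.9 ± 12.3 TPM) stood at nearly one level. Of the words of the leading Fdps transcript 85.2% occur in other genes, most of them in Gm43738, which overlaps it on the same strand and was itself at 0.227 TPM; of Idi1, 22.2% do.

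The 3 enzymes from farnesyl diphosphate to lanosterol were above 1 TPM as well. Sqle, the squalene epoxidase that adds the oxygen, had 109, 92.8, 142 and 117 TPM. Fdft1, the squalene synthase that commits farnesyl diphosphate to sterols, had 95.3, 72.1, 108 and 91.2 TPM. Both were highest in library 3 and lowest in library 2. Of the 31-base words of the leading Fdft1 transcript 47.5% occur in other genes, and 26.96% of its bases overlap an exon of the abundant protease gene Ctsb (198 TPM) on the opposite strand, and no label says that strand was kept. Lss, the lanosterol synthase, stood lower, at 24.1, 30.3, 50.9 and 23.3 TPM. Only library 3 stood apart for Lss, and its mean was 32.1 ± 12.9 TPM (SD, n = 4).

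All 8 enzymes after lanosterol were above 1 TPM, with a median of means of 30.7 TPM. Msmo1, the methylsterol oxidase (chromosome 8, 64718139 to 64733792), had 181, 144, 235 and 186 TPM and was the highest of them. Cyp51, the lanosterol demethylase, averaged 69.1 ± 12.02 TPM and Dhcr7, the reductase that makes cholesterol in the last step of one branch, 64.7 ± 8.24 TPM (SD, n = 4 each). Tm7sf2, a sterol reductase, had 16.6, 22.6, 48.2 and 36.9 TPM, a 2.91-fold range with libraries 1 and 2 low and libraries 3 and 4 high. The dehydrogenase Nsdhl (26.4 ± 2.71 TPM), the desaturase Sc5d (30.3 ± 5.16 TPM), the keto reductase Hsd17b7 (20.4 ± 5.38 TPM) and the isomerase Ebp (14.3 ± 3.36 TPM) were lower. With all transcripts summed Ebp had the lowest mean of the 18 enzymes, and it was highest in library 4 at 19.1 TPM. There the retained-intron transcripts Ebp-202 and Ebp-204 had 6.13 and 1.57 TPM, and both were at 0 in libraries 1 to 3. Protein-coding transcripts held 59.7% of Ebp in library 4 and 100% in libraries 1 to 3. Over them, library 4 was the lowest, close to library 3. Over protein-coding transcripts alone Hsd17b7 was lower than Ebp (log2 ratio of Ebp over Hsd17b7 0.17).

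Libraries 2 and 3 stood apart from the others for most of the 18 enzymes. Library 2 was the lowest in 13 of 18, where it was the lowest for 32.6% of the 9433 genes of at least 10 TPM. With all transcripts summed it was below the mean of the other 3 for all 18. For Lss, however, library 2 (30.3 TPM) stood above libraries 1 and 4, and for Ebp (13.7 TPM) above libraries 1 and 3. Over protein-coding transcripts library 2 was the highest for Ebp. Library 3 was the highest in 13 of 18, against 38.6% of the 9433 genes, and above the mean of the others for 17 of 18, all but Ebp. The median deviation from the other libraries on the log2 scale was -0.39 in library 2 and 0.35 in library 3, where genes of at least 10 TPM had -0.07 and 0.15. In library 1 it was -0.005 and in library 4 0.05. Summed, the enzymes came to 1261, 1007, 1552 and 1219 TPM.

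**Figure D2:**
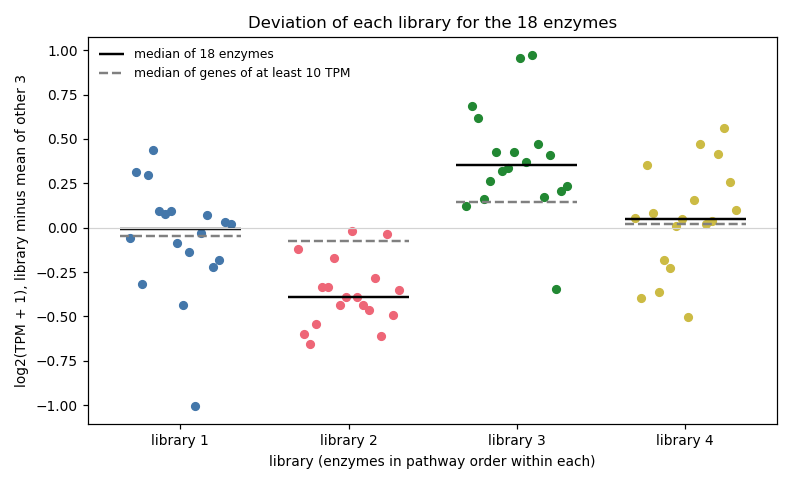
Deviation of each library from the mean of the other 3 for the 18 enzymes (points, log2(TPM + 1)), with their median (black) and the median of 9433 genes of at least 10 TPM (grey dashes). All points of library 2 lie below 0 and all but 1 of library 3 above it; the medians are -0.39 and 0.35.

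Some other measures had the same extremes. The summed level of the 7 neural stem markers was 2192, 1941, 2687 and 2327 TPM, lowest in library 2 and highest in library 3. Slc1a3 made up much of that sum, at 987, 820, 1164 and 1066 TPM. Not every marker had these extremes: Fabp7 and Egfr were highest in library 4 and Hes5 in library 1. Hes5 and Gfap were lowest in library 4. Mitochondrially encoded genes held 16.6, 18.4, 13.5 and 15.7% of TPM, highest in library 2 and lowest in library 3. Their part in the order of the enzymes was not tested. Oligodendrocyte markers, by contrast, summed to 2515, 3661, 3316 and 4343 TPM, lowest in library 1. Mbp, the largest part of that sum at 1774, 1608, 1471 and 1969 TPM, was lowest in library 3, as was Mobp. The remaining genes of that list were each lowest in library 1, with ranges from 3.06-fold (Cnp) to 14.1-fold (Mag). Ependymal markers summed to 601, 1211, 795 and 997 TPM, lowest in library 1 and highest in library 2. Rescaled over nuclear protein-coding genes, library 2 was lowest for 12 and library 3 highest for 11 of the 18, against 22.3% and 26.9% of genes. With no groups among the libraries, the order of libraries is a description without a test.

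The 7 genes of SREBP control were all above 1 TPM. Srebf2, whose product is the main activator of the cholesterol enzymes, had 101, 90.4, 114 and 94.4 TPM. Srebf1, which encodes SREBP-1 (chromosome 11, 60199089 to 60222581), had 222, 277, 337 and 298 TPM, the highest mean of the 34 genes. Within libraries Srebf2 was 2.80-fold lower than Srebf1, in 4 of 4 (mean log2 ratio -1.48 ± 0.24 SD). A two-sided exact permutation of signs gave p = 0.125, the lowest value possible with 4 libraries. The ratio was -0.05 on the log2 scale when only the most abundant transcript of each gene was taken, so the order of the SREBP genes rests on the sum over Srebf1 transcripts.

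Srebf1 is transcribed from alternative starts, known as the source of the SREBP-1a and SREBP-1c forms, of which the 1a start lies upstream. The transcript that begins at 60210465, next to the downstream start printed above, held 45.5 ± 3.37% of protein-coding Srebf1 TPM. The one that begins at 60220604, next to the upstream start printed above, held 29.9 ± 2.17%, and a further one beginning at 60207188 held 24.5 ± 1.65% (SD, n = 4 each). In TPM the downstream transcript had 85.9, 83.0, 139 and 113, against 54.2, 64.8, 77.1 and 77.0 for the upstream one. The downstream transcript was the higher in each library. The other 8 Srebf1 transcripts with a count are annotated as processed, without a coding frame.

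Of the anchors that hold SCAP back, Insig2 had 27.2, 29.7, 36.8 and 26.4 TPM. Its sterol-regulated relative Insig1 (chromosome 5, 28071363 to 28078662) had 159, 174, 260.1 and 154 TPM. Insig2 was 5.96-fold lower than Insig1, in 4 of 4 libraries (mean log2 ratio -2.58 ± 0.14 SD; exact sign-flip test, p = 0.125), and the ratio was -3.54 with the most abundant transcript of each. Both were highest in library 3. The site-2 protease gene Mbtps2 was low, at 7.76, 9.39, 7.14 and 2.68 TPM, with library 4 apart from the rest. The site-1 protease gene Mbtps1 averaged 48.3 ± 6.29 TPM and the escort Scap 41.6 ± 3.35 TPM (SD, n = 4 each). Mbtps2 was 6.78-fold lower than Mbtps1, in 4 of 4 libraries (mean log2 ratio -2.76 ± 0.60 SD), and the ratio was -3.50 over protein-coding transcripts. With its most abundant transcript alone, Mbtps2 was no longer called above 1 TPM (limma, adjusted p = 0.071). In this class library 2 did not stand low: its median deviation was -0.01, against -0.39 for the enzymes, a difference that was not tested.

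Among genes of sterol transport and fate, 8 of 9 were above 1 TPM, with a median of means of 17.6 TPM. Of the pair that moves cholesterol out of late endosomes and lysosomes, soluble Npc2 had 74.8, 55.3, 73.7 and 71.5 TPM and membrane-bound Npc1 (chromosome 18) had 15.6, 15.8, 19.2 and 31.7 TPM. Npc2 was 3.35-fold higher than Npc1, in 4 of 4 libraries (mean log2 ratio 1.74 ± 0.44 SD; exact sign-flip test, p = 0.125), and the ratio was 2.60 over protein-coding transcripts. Soat1, which esterifies cholesterol for storage, averaged 97.3 ± 16.9 TPM (SD, n = 4).

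Cyp46a1, the hydroxylase by which neurons clear cholesterol from the brain, had 59.8, 75.9, 73.5 and 63.8 TPM. Neuron markers were summed at 1284, 1047, 1039 and 1092 TPM, highest in library 1, where Cyp46a1 was lowest; their part in its level was not tested. Cyp27a1, the mitochondrial hydroxylase of the periphery, had 1.55, 8.86, 4.16 and 4.05 TPM, so that Cyp46a1 was 13.6-fold higher than Cyp27a1, in 4 of 4 libraries (mean log2 ratio 3.77 ± 0.66 SD; exact sign-flip test, p = 0.125). Over protein-coding transcripts that ratio was 4.43. Cyp27a1 passed as above 1 TPM with an adjusted p of 0.011 (limma); with its most abundant transcript alone the log2 difference was 0.68 and the call was lost (adjusted p = 0.060).

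Ch25h, an oxysterol-forming hydroxylase known from macrophages (chromosome 19, 34473778 to 34475164), had 0, 1.10, 3.07 and 2.20 TPM. Library 1 had no count, which allows up to 0.167 TPM at 3 counts, counting error only. Its log2 difference from 1 TPM was 0.19 ± 0.35 (SE; limma, adjusted p = 0.622). Mylip, the ubiquitin ligase that removes lipoprotein receptors, had 1.44, 2.15, 4.28 and 4.33 TPM (limma, adjusted p = 0.020). The call of Mylip was lost without library 3 (adjusted p = 0.076) or library 4 (adjusted p = 0.058). Ch25h, Mylip and Cyp27a1 were lowest in library 1, as were the 7 microglia markers, summed at 99.8, 264, 365 and 364 TPM. The summed oligodendrocyte, ependymal and erythroid markers were lowest in library 1 too, as were Npc1, Osbp and Cyp46a1. For Cyp27a1 this holds with all transcripts summed. Its retained-intron transcripts Cyp27a1-202 and Cyp27a1-203 were at 0 in library 1, and the protein-coding Cyp27a1-201 was lowest in library 3. The part of any of these cell types in these levels was not tested.

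The sterol carriers Stard4 and Osbp differed as well. Stard4 (chromosome 18) had 4.01, 3.14, 6.22 and 8.204 TPM. Osbp had 11.3, 11.6, 25.98 and 21.3 TPM, with libraries 1 and 2 low and libraries 3 and 4 high. Stard4 was 2.87-fold lower than Osbp, in 4 of 4 libraries; the log2 ratio was -1.52, or -2.56 with the most abundant transcript. Of the 9 genes of this class 6 were lowest in library 1. That library was the lowest for 30.03% of the 9433 genes of at least 10 TPM, a level not all of the 9 reached. The median SD of the class was 0.52 on the log2(TPM + 1) scale, beside 0.27 for the 18 enzymes and 0.21 for SREBP control. The wider class also holds the lowest levels. Over all 34 genes the median SD was 0.27, close to the 0.25 of the 9433 genes of at least 10 TPM.

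Levels did not run evenly along the pathway. Of 17 ratios between neighbouring enzymes 15 had one direction in all 4 libraries, and all 9 ratios between genes of related roles did. Genes at unlike levels tend to keep their order, and the share among gene pairs at large was not computed. The counts therefore only describe these pairs. With 4 libraries the exact sign-flip test cannot go below p = 0.125 for any pair (0.135 adjusted over the 26), so none could pass 0.05. Among neighbours with all transcripts summed, the largest steps down were Nsdhl after Msmo1 (6.77-fold lower) and Mvk after Hmgcs1 (6.74-fold lower), and the largest step up was Msmo1 after Tm7sf2 (6.23-fold higher). Over protein-coding transcripts alone the log2 ratio of Nsdhl over Msmo1 was -2.28, less far from 0 than the -2.58 of Lss over Sqle. The steps from Idi1 through Fdps to Fdft1 were within the spread between libraries: the log2 ratio of Fdps over Idi1 was -0.05 ± 0.09 and that of Fdft1 over Fdps -0.01 ± 0.16 (SD, n = 4). In the order of all 34 levels, 9 of 33 steps between neighbours had the same direction in every library. Srebf1 stood above Hmgcs1 in all 4, while Hmgcs1, Insig1 and Msmo1 exchanged places between libraries.

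**Figure D3:**
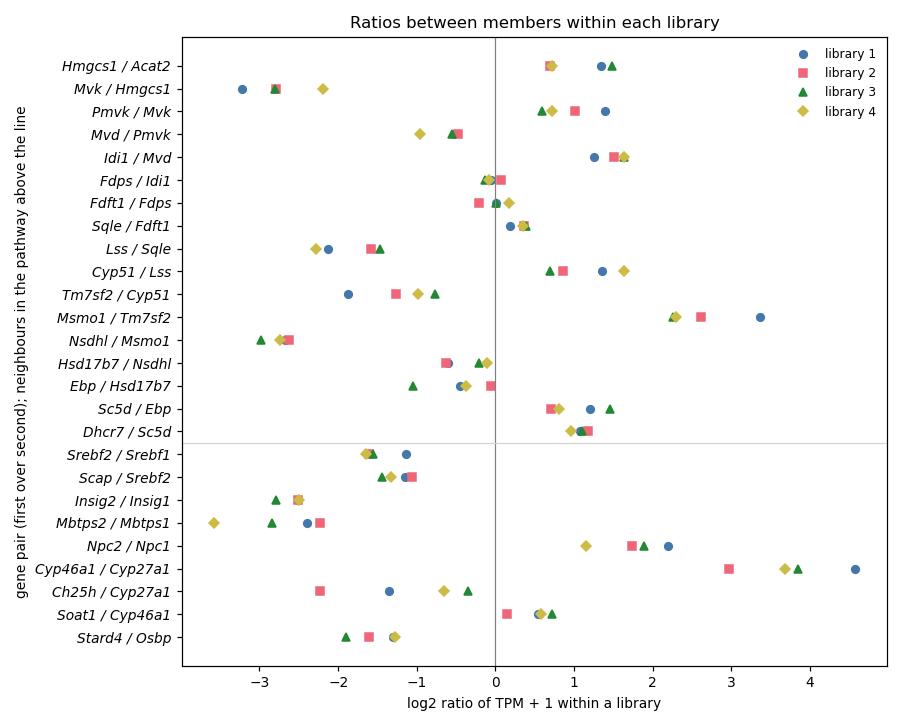
Log2 ratio of TPM + 1 within each library for 26 pairs of genes, 17 neighbours in the pathway (above the line) and 9 pairs of related roles. Points of 24 pairs lie on one side of 0; those of Fdps over Idi1 and Fdft1 over Fdps straddle it.

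The level of a gene was not always that of its protein-coding transcripts. The leading transcript was protein-coding in 33 of 34 genes; it held at least 90% of the TPM in 13 genes and under 60% in 12, and 8 genes had a single transcript in the files. The exception was Mbtps2, led by the retained-intron transcript Mbtps2-207 at 31.03 ± 11.3%, and protein-coding transcripts held 48.9 ± 7.14% of its TPM (SD, n = 4). Retained-intron transcripts held 39.4 ± 8.58% of Lss, 23.4 ± 4.72% of Soat1 and 20.2 ± 4.17% of Cyp51. They also held 42.2 ± 10.3% of Mbtps2, 41.1 ± 28.1% of Cyp27a1, 25.5 ± 11.1% of Tm7sf2 and 21.9 ± 7.68% of Stard4. Transcripts annotated as processed, without a coding frame, took 24.5 ± 2.60% of Msmo1 through Msmo1-206, 32.8 ± 4.66% of Hsd17b7 through Hsd17b7-204 and 34.8 ± 14.98% of Npc1 through Npc1-203, which is 352 bases long. A short transcript gains more TPM per read than a long one.

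The leading transcript was the same in every library for 27 of 34 genes. Sc5d divided between its protein-coding forms: Sc5d-201 held 75.2, 55.8, 33.5 and 52.8% in libraries 1 to 4, and Sc5d-202 led in library 3. Insig2-201 held 69.2, 49.0, 35.4 and 31.4% of Insig2, and the shorter Insig2-208 led in library 4 at 43.7%. Pmvk-201 led Pmvk in each library at 55.8 to 77.9%. Such shares are divisions by estimation of reads that several transcripts share.

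**Figure D4:**
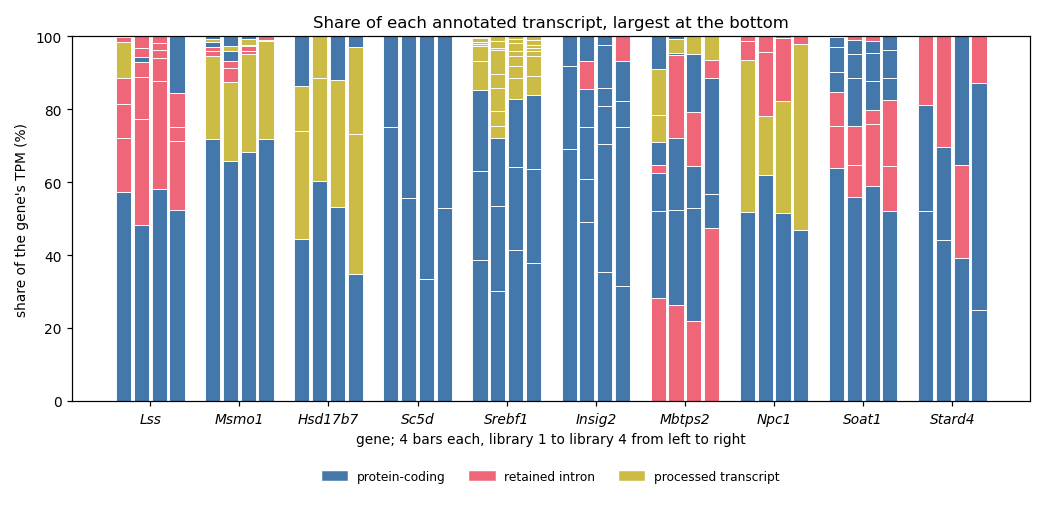
Share of each gene's TPM (%) held by each annotated transcript in libraries 1 to 4, for 10 genes; a segment is 1 transcript, coloured by annotated type. Sc5d, Insig2 and Srebf1 divide mostly among protein-coding forms, while Lss, Mbtps2, Npc1 and Hsd17b7 hold large segments of other types.

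Other genes of sterol metabolism gave a like picture, with 41 of 42 above 1 TPM and 1 below it, beside the 62.8% of all genes above. All 6 electron donors and sterol partners were above it, led by the cytochrome b5 gene Cyb5a (266 ± 17.3 TPM) and the reductase Por, which feeds electrons to Cyp51 and Sqle (154 ± 23.6 TPM). All 8 genes of the isoprenoid branches were, led by the prenyltransferase subunit Fnta (103 ± 7.12 TPM) and the dolichol-synthesis gene Dhdds (46.2 ± 4.09 TPM). All 10 genes of degradation at the endoplasmic reticulum or SREBP partners were, among them Aup1 (121 ± 25.5 TPM). All 9 further sterol carriers were, led by Scp2 (321 ± 44.3 TPM) and Gramd1a (70.1 ± 20.6 TPM). Of 9 genes of ester hydrolysis, oxysterols and export 8 were, led by the oxysterol receptor Nr1h2 (109 ± 13.5 TPM) and Hsd3b7 (19.5 ± 5.02 TPM). Soat2, the relative of Soat1 known from liver and intestine, was below 1 TPM at 0.149 ± 0.032 TPM (SD, n = 4 for each gene).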

How the data were processed

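RNA of 4 libraries of 1 group was sequenced as paired-end reads after SMART-Seq v4 amplification, per the labels' protocols. Estimated counts and TPM per transcript were made by the authors with kallisto, listed with sleuth and mm10 in the submitters' processing notes; neither versions nor the transcript release are given in the sources at hand. Estimated counts in the deposited files divide shared reads by estimate, and TPM in the deposited files is that count per effective length over a fixed total.

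Transcripts were matched to GENCODE M21 (98294 of 99567, without version) and summed per gene. The mean of log2(TPM + 1) was tested against 1 TPM with limma 3.58.1 over 19908 genes. Tested on simulated counts of 19908 genes, it called 75% of 200 genes simulated at 2 TPM. At 1 TPM it called 1.5% above and 5.5% below. Every gene was simulated with a dispersion of 0.1. These rates need not hold for low members with a wide spread, such as Cyp27a1 (4.65 ± 3.05 TPM) and Ch25h (1.59 ± 1.33 TPM, SD, n = 4 each). Ratios of 26 pairs were tested by exact sign-flip permutation. A count of 0 has 3 counts as its limit, covering counting error only. Folds are on the log2(TPM + 1) scale. Members, lists, pairs and motifs were chosen with earlier results of these data known. All 34 members are named; of 42 other genes, the 2 highest per class and any not above 1 TPM, except 1 that is not reported here. Alternatives used edgeR 4.0.16 and DESeq2 1.42.0 in R 4.3.3, on counts rounded to whole numbers.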

Additional observations from a re-analysis of the deposited data

Results flagged for a closer look

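In 5 of 85 sets of 4 libraries examined (levels, ratios and shares of leading transcripts), 1 library lay far from the other 3, measured as its gap to the nearest divided by the whole range; chance flags about 1 set in 20. The level of Npc2 was low in library 2, at 55.3 TPM against 71.5 to 74.8 TPM in the others (gap 0.851 of the range on the log2 scale). The log2 ratio of Mvd over Pmvk was -0.96 in library 4, against -0.56 to -0.47 in the others (0.832). That of Insig2 over Insig1 was -2.79 in library 3, against -2.51 to -2.50 (0.954). Ebp-201 held 32.97% of Ebp in library 4, against 67.5 to 68.9% (0.960). Tm7sf2-201 held 38.8% of Tm7sf2 in library 3, against 54.2 to 56.4% (0.874).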

How the results depend on the processing

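The number of members above 1 TPM was 33 of 34 and over 10 settings ran from 29 (against 5 TPM) to 33, and from 32 to 33 when 1 library was left out. Pairs with one direction in every library numbered 24 of 26, between 20 and 24 over 7 settings, and 24 to 26 with 3 libraries. Rescaling over nuclear protein-coding genes moved the median gene by 0.38 on the log2 scale, and other scalings did not shift it at 2 decimals. Leading transcripts were protein-coding in 33 to 34 genes. The median SD of 0.27 lay between 0.22 and 0.30. Scaling and summing, chosen after seeing the data, gave 11 to 14 enzymes lowest in library 2 and 11 to 13 highest in library 3. Single values that turned sign are as follows. Against 5 TPM the log2 difference was -0.25 for Cyp27a1, -1.39 for Ch25h and -0.65 for Mylip; Ch25h was at -0.19 with a pseudocount of 0.1, and between -0.085 and 0.590 when 1 library was left out, lowest without library 3. Without length correction Mvd over Pmvk was 0.058, with protein-coding transcripts only Ebp over Hsd17b7 was 0.17, and with the most abundant transcript Soat1 over Cyp46a1 was -0.29 (log2 ratios). Fdft1 over Fdps, near 0 at -0.01, was 0.03 with protein-coding transcripts, 0.13 with the most abundant, 1.26 without length correction and 0.06 without library 2; the cause was not tested. Without length correction ratios between genes move by construction. No paired analysis was possible because there is 1 group. Depth limits Ch25h most, at 0 to 42 counts per library.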
